A study of Mus musculus with 2 samples.

Results

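Myc, the 3 enzymes that make serine from a glycolytic intermediate (Phgdh, Psat1 and Psph), 3 enzymes that pass the carbon of serine into the folate cycle (Shmt1, Shmt2 and Mthfd2) and the subunits of the amino acid exchanger LAT1 (Slc7a5 and Slc3a2) were followed from wild-type mouse bone marrow cells grown with M-CSF to the same cells given M-CSF and RANKL. These 9 genes were chosen by name, with earlier results of these data known, and each had an assembled locus of its own in both libraries. They are 9 of the 14870 genes to which 1 or both assemblies gave a locus, and of 13449 genes compared, which had a locus of their own and at least 1 TPM in at least 1 library. Bone marrow cells were kept in M-CSF alone for 2 days. The library called M continued without RANKL, and the library called MR received both cytokines, for 2 days by the sample labels and 3 days by the culture method of the study. The concentration was 20 ng/mL for M-CSF and, in MR, 100 ng/mL for RANKL. Each condition was 1 library, so no difference below has a replicate check, no test was possible, and the intervals cover counting error only. Because the RNA came from whole cultures, a smaller number of cells of one type and less RNA per cell cannot be told apart.

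Myc is a transcription factor that binds DNA as a pair with Max and is known for activating genes of ribosome production, nucleotide synthesis and amino acid supply. The serine pathway begins with Phgdh, which oxidizes 3-phosphoglycerate. Psat1 then adds the amino group from glutamate, and Psph removes the phosphate. The serine hydroxymethyltransferases Shmt1 (cytosol) and Shmt2 (mitochondria) split serine into glycine and a one-carbon unit on tetrahydrofolate, which Mthfd2 oxidizes in mitochondria. Slc7a5 is the transporting subunit of LAT1, which takes up leucine and other large neutral amino acids, and Slc3a2 (CD98 heavy chain) is the glycoprotein that carries it and several other light chains to the cell surface. RANKL is the cytokine that turns M-CSF-dependent precursors into osteoclasts, the multinucleate cells that resorb bone.

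The stretches of 250 bases before the RefSeq starts of Phgdh, Psat1 and Mthfd2 (GRCm38.p6) are shown as 3 windows that hold CCAAT, in genes whose assembled 5′ ends lay between 10 and 82 bases downstream of the start in both libraries. They are examples and do not stand for all 9 genes. The 5′ ends of Shmt2 lay 20 and 21 bases downstream of its start in M and MR, and its window held none of the motifs searched. All 3 are on the minus strand, at chr3:98339970-98340219, chr19:15925060-15925309 and chr6:83317605-83317854, and are written 5′ to 3′ in the direction of the gene, ending at the last base before the start. Capitals mark CCAAT on either strand, which is CCAAT or its complement, and in Psat1 also CACGCG.
Phgdh: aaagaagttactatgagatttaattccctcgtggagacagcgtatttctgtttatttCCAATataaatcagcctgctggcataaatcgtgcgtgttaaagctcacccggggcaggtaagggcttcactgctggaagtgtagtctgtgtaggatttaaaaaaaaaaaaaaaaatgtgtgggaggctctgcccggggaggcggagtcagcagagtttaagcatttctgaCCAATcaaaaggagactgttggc
Psat1: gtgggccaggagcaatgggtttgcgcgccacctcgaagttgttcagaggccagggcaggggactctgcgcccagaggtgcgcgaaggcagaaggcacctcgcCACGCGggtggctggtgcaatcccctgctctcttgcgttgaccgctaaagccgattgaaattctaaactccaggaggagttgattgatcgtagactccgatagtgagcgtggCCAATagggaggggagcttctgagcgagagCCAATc
Mthfd2: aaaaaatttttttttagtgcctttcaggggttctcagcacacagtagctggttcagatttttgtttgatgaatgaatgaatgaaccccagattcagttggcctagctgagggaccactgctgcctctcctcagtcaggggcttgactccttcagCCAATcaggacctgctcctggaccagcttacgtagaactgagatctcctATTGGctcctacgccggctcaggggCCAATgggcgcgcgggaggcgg

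In the 250 bases before the start, 7 of the 9 genes could be searched, and Myc and Slc7a5 were not matched in the RefSeq table. For Slc3a2 the 5′ end lay 265 bases downstream of the start in MR and far upstream of it in M. Its window is therefore not shown to be the promoter of either assembled locus. The letters CACGTG, the E-box that Myc and Max bind best, were in 0 of 7 windows, against 6.02% of 32851 RefSeq windows of the same length. The E-box variant CACGCG was in 2 of 7 windows (Psat1 and Shmt1), against 7.62% of all windows. The letters TGATGNAA, the core to which Atf4 binds with a partner, were in 0 of 7 windows, against 3.45% of all. CCAAT was in 5 of 7 windows (Phgdh, Psat1, Psph, Shmt1 and Mthfd2), against 33.8% of all windows. GGGCGG, the GC box, was in 3 of 7 windows (Psph, Shmt1 and Slc3a2), against 32.7%. Both strands were read, and a match is a description of letters, not evidence of binding. In Phgdh the nearer CCAAT ended 19 bases before the start, in Psat1 the 2 matches ended 32 and 2 bases before it, and in Mthfd2 the nearest ended 18 bases before it.

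The deposited tables correspond to about 3.63 Gb of aligned bases in M and 2.98 Gb in MR, with 19422 and 19922 assembled loci. Marker genes followed the labels of the cultures. All 9 osteoclast markers were more than 2-fold higher in MR (log2 ratio above 1), with a summed level of 126.2 TPM in M and 24993 TPM in MR, and 4 of them (Calcr, Oscar, Dcstamp and Ocstamp) had no locus in M. Of 7 macrophage markers, 4 were lower by more than 1 log2 unit in MR (sum 5354 TPM in M, 3309 TPM in MR). All 8 proliferation markers were lower in MR, 2 of them past −1, and their sum was 760.8 TPM in M and 265.9 TPM in MR. Neutrophil markers, which were present in both libraries, summed to 1365 and 953 TPM, with 0 of 8 past 1 in either direction. Lymphoid markers summed to 9.23 and 7.04 TPM, erythroid markers to 6.41 and 3.27 TPM, stromal markers to 17.8 and 24.6 TPM, and mast cell and basophil markers to 6.97 and 1.11 TPM in M and MR, with Cd3e, Cd3d, Fcer1a and Ms4a2 among those without a locus. The part of these shifts in the values below was not tested.

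Summed TPM was higher in MR for 8 of the 9 genes, and the exception was Slc3a2. A gene was counted as higher or lower in MR when its log2 ratio of TPM, with 1 added to each value, was above 1 or below −1. On the summed TPM, 5 of 9 genes (Myc, Psat1, Psph, Shmt2 and Slc7a5) were above 1, where 21.3% of all compared genes were, and 1 of 9 (Slc3a2) was below −1, where 13.2% were. The median log2 ratio was 1.11 over the 9 genes and 0.21 over all compared genes, of which 59.5% were higher in MR. Scaling by the median of ratios over 11265 genes shifted the libraries by 0.18 log2 units. It lowered the log2 ratios, with 1 added, by up to that amount and moved the median of all genes to 0.03. The count above 1 was then 4 of 9, Psat1 being at 0.93, where 18.2% of all genes were above 1, and Slc3a2 was below −1, where 16.0% were.

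**Figure D1:**
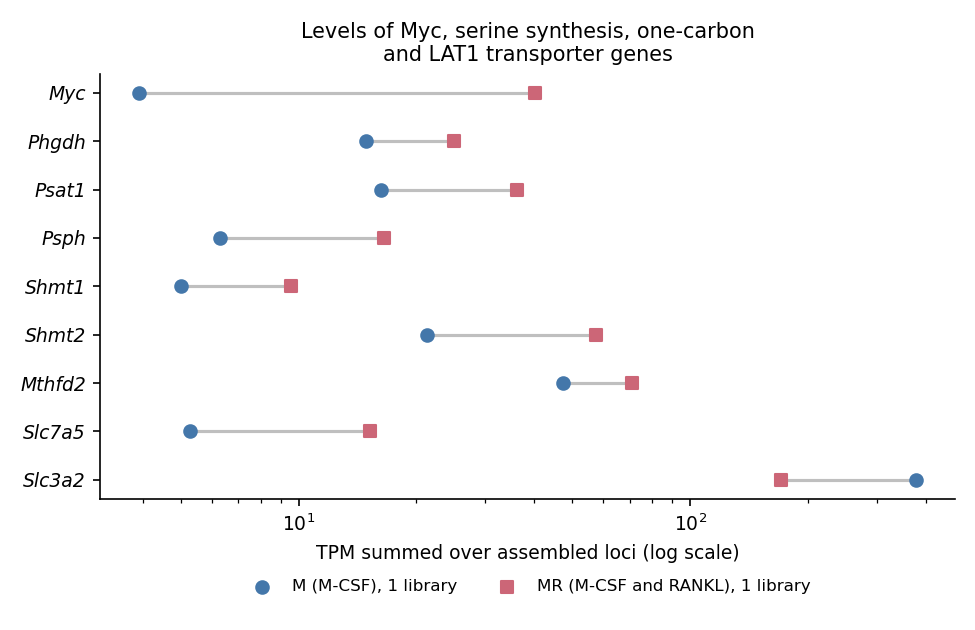
TPM of the 9 genes (x axis, log scale) in the M library (circles) and the MR library (squares), 1 library each, with no error bars because there were no replicates. Myc runs from 3.92 to 40.1 TPM, and Slc3a2, at 376.8 and 170.6 TPM, is the only gene whose square lies left of its circle.

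On summed TPM, Myc was the lowest of the 9 genes in M and stood behind only Slc3a2, Mthfd2 and Shmt2 in MR, while on the exon-weighted mean Shmt1 was lower than Myc in M, at 2.91 TPM. Its level was 3.92 TPM in M and 40.1 TPM in MR, from about 47 and 415 read pairs. The fold was 10.2 (95% counting interval 7.58 to 13.8), and the log2 ratio with 1 added was 3.06 (2.63 to 3.50), which 316 genes (2.35% of those compared) exceeded. In M 25.7% of genes lay below Myc, and in MR 73.5% did. The gene (ENSMUSG00000022346.15) lies on chromosome 15 from 61985391 to 61990374 on the plus strand of GRCm38. Its locus in M began 493 bases inside the annotated start and held 75.9% of the bases of the 3-exon transcript Myc-201, while the locus in MR began 8 bases inside it and held 96.5%. Both 5′ ends, 485 bases apart, were in exon 1. Listed coverage, the mean depth per base, gave the same direction after division by the aligned bases, with 1.81 per Gb in M, 17.1 per Gb in MR and a log2 ratio of 2.69. Without the added 1 the coverage fold was 9.43, against 10.2 in TPM.

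The 3 serine synthesis enzymes were all higher in MR, and for Phgdh the size depended on how a broken assembly was added up. Psat1 (ENSMUSG00000024640.9, chromosome 19, 15904678 to 15947337, minus strand) was at 16.3 TPM in M and 36.2 TPM in MR. That is 2.23-fold (1.90 to 2.61), with a log2 ratio of 1.11 on TPM and 1.21 on coverage per Gb. Psph (ENSMUSG00000029446.14, chromosome 5, 129765558 to 129787449, minus strand), the last enzyme of the pathway, was at 6.29 TPM in M and 16.6 TPM in MR. Its fold was 2.63 (1.94 to 3.57), from about 61 and 127 read pairs, and its log2 ratio was 1.27 on TPM and 1.10 on coverage per Gb.

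Phgdh (ENSMUSG00000053398.11, chromosome 3, 98313170 to 98339990, minus strand), the first enzyme, summed to 14.8 TPM in M and 24.9 TPM in MR, a fold of 1.68 (1.24 to 2.28) and a log2 ratio of 0.71. In M the gene was covered by 3 separate loci at 4.72, 4.61 and 5.50 TPM from the 5′ to the 3′ end, with gaps of 6366 and 419 bases between them. Exons 3 and 4 of the 12 exons of Phgdh-201 lay in none of them. In MR 1 locus ran over all 12 exons. TPM is a level per base of transcript, so adding 3 pieces of one transcript counts that transcript more than once. The mean of the 3 pieces weighted by their exon bases was 5.19 TPM, against which MR was 4.8-fold higher (log2 ratio 2.07), and the same mean of coverage per Gb went from 2.40 to 11.1 (log2 ratio 1.83). These values stood on about 51 read pairs of M and 209 of MR.

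Broken loci were common, since 2465 compared genes (18.3%) had more than 1 locus in at least 1 library. Among the 9 genes only Phgdh and Shmt1 did. With the weighted mean, an alternative chosen after seeing the data, 7 of the 9 genes were above 1 in the log2 ratio, where 20.3% of all genes were, and the median of the 9 was 1.37.

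**Figure D2:**
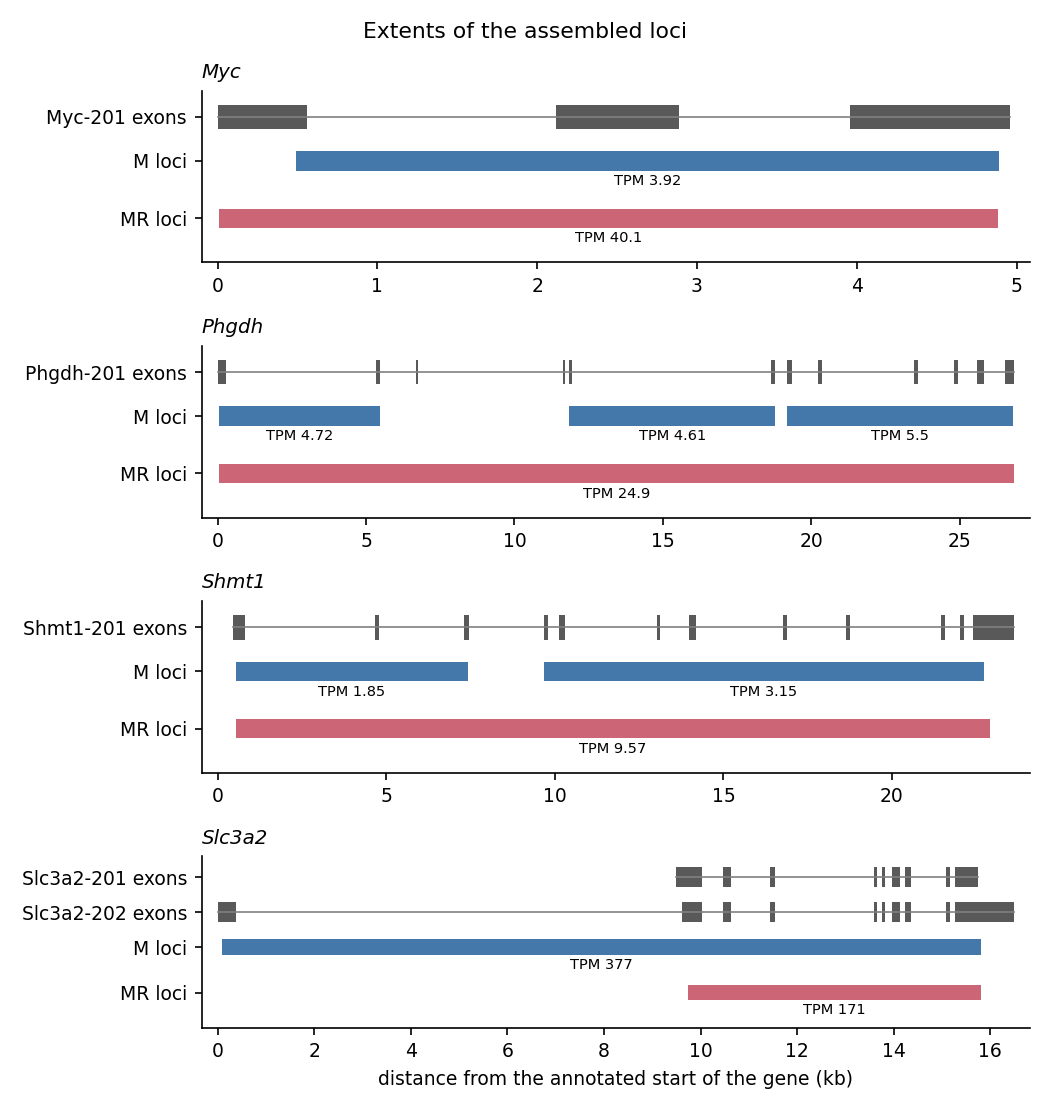
Extents of the assembled loci of Myc, Phgdh, Shmt1 and Slc3a2 in M and MR, with the TPM listed for each locus, drawn under the exons of the annotated transcripts. The x axis is the distance in kb from the annotated start of the gene in the direction of transcription. Phgdh is in 3 pieces in M and 1 in MR, Shmt1 in 2 pieces and 1, and the Slc3a2 locus of M starts 9639 bases upstream of that of MR.

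Of the enzymes that pass the carbon of serine into the folate cycle, Shmt2 was higher in MR by more than 1 log2 unit in TPM and in coverage, and Mthfd2 by less. Shmt2 (ENSMUSG00000025403.5, chromosome 10, 127517123 to 127522444, minus strand) was at 21.2 TPM in M and 57.6 TPM in MR. The fold was 2.71 (2.35 to 3.13), and the log2 ratio was 1.40 on TPM and 1.44 on coverage per Gb. Mthfd2 (ENSMUSG00000005667.8, chromosome 6, 83305691 to 83325908, minus strand) was at 47.2 TPM in M and 71.2 TPM in MR, a fold of 1.51 (1.34 to 1.69). Its log2 ratio of 0.58 was exceeded by 33.5% of all compared genes, and on coverage per Gb it was 0.51. It remained the most abundant of the metabolic enzymes among the 9 genes in both libraries.

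Shmt1 (ENSMUSG00000020534.14, chromosome 11, 60788104 to 60811718, minus strand), the cytosolic enzyme, was the least certain of the 3. Its TPM summed to 5.0 in M, from 2 loci at 1.85 and 3.15 TPM with a gap of 2273 bases, and was 9.57 in MR from 1 locus, a fold of 1.91 (1.34 to 2.73) and a log2 ratio of 0.82. On the exon-weighted mean the fold was 3.29, from 2.91 to 9.57 TPM. Coverage per Gb gave almost no difference when summed (2.31 in M, 2.27 in MR, log2 ratio −0.02) and 1.35 against 2.27 as a weighted mean (log2 ratio 0.48). Without the added 1 the fold of that weighted mean was 1.69. In the MR library the coverage that the listed FPKM implies was 1.87 times the coverage listed for that locus, so TPM and coverage were not interchangeable there. The gene rested on about 40 read pairs of M and 120 of MR by FPKM, and on 40 and 64 by listed coverage.

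Of the LAT1 subunits, Slc7a5 was higher in MR in both units, while Slc3a2 was lower in TPM and higher in coverage. Slc7a5 (ENSMUSG00000040010.10, chromosome 8, 121881150 to 121907694, minus strand) was at 5.27 TPM in M and 15.2 TPM in MR, a fold of 2.88 (2.29 to 3.62). Its log2 ratio was 1.37 on TPM and 1.17 on coverage per Gb, from about 104 and 236 read pairs.

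Slc3a2 (ENSMUSG00000010095.13, chromosome 19, 8706882 to 8723369, minus strand) had the highest TPM of the 9 genes in both libraries, at 376.8 TPM in M and 170.6 TPM in MR. In TPM it was 2.21-fold lower in MR, a log2 ratio of −1.14 (−1.23 to −1.05). The coverage listed for the same loci was 76.6 in M and 181.4 in MR. Per Gb that was 21.1 and 60.8, 2.88-fold higher in MR, with a log2 ratio of 1.48. Listed FPKM implied 8.26 times the listed coverage in M and 1.2 times in MR. The interval above used about 3838 read pairs of M and 1372 of MR by FPKM, where listed coverage gave 465 and 1100. The locus in M reached to exon 1 of the longer transcript Slc3a2-202, and that in MR began 9639 bases further downstream, inside exon 1 of Slc3a2-201. Only 14 of 11265 genes with at least 1 TPM in both libraries (0.124%) went past 1 in opposite directions in the 2 units, and Slc3a2 was one of them. Its direction therefore could not be told from the deposited values.

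**Figure D3:**
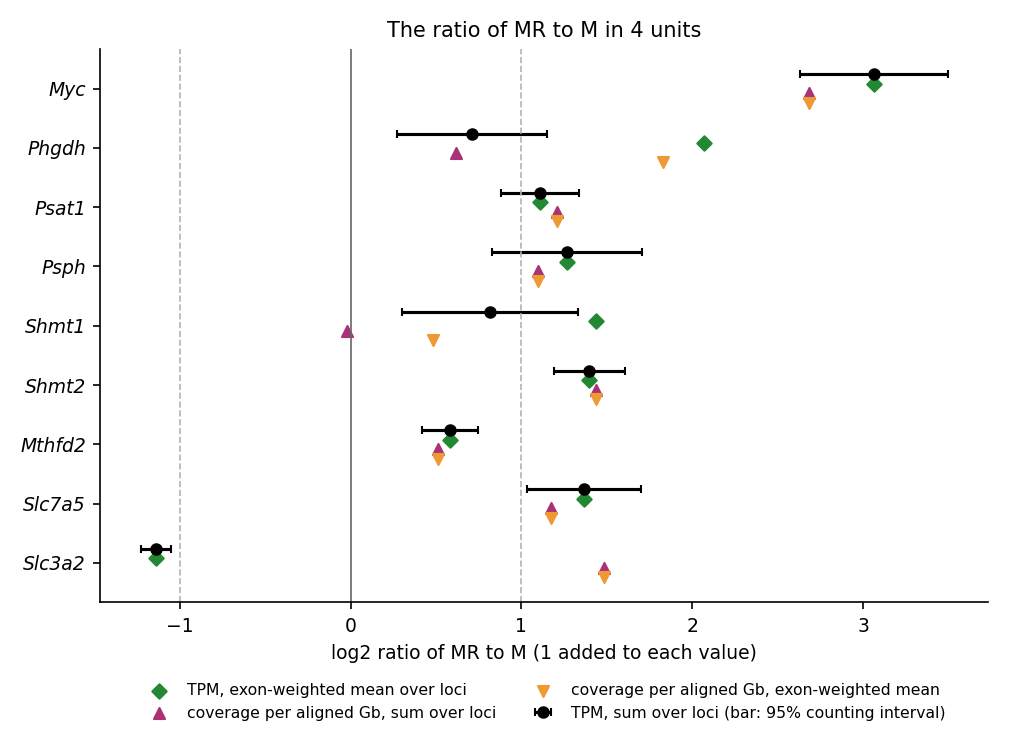
Log2 ratio of MR to M for the 9 genes (x axis, 1 added to each value) from TPM summed over loci (circles, bars are 95% counting intervals), the exon-weighted mean TPM (diamonds), coverage per aligned Gb summed over loci (upward triangles) and its exon-weighted mean (downward triangles). The markers of Myc, Psat1, Psph, Shmt2, Mthfd2 and Slc7a5 lie close together, those of Phgdh and Shmt1 spread, and those of Slc3a2 fall on both sides of 0, at −1.14 and 1.48.

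In the order of summed TPM, Slc3a2, Mthfd2 and Shmt2 held the first places in both libraries. In M they were followed by Psat1, Phgdh, Psph, Slc7a5, Shmt1 and Myc, and in MR by Myc, Psat1, Phgdh, Psph, Slc7a5 and Shmt1. This order holds for summed TPM only. On coverage per Gb, Mthfd2 (21.8) stood above Slc3a2 (21.1) in M. On the exon-weighted mean TPM, Phgdh in M (5.19) stood below Psph (6.29) and Slc7a5 (5.27), and Shmt1 (2.91) below Myc (3.92). There was no spread over samples by which to tell neighbours apart.

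Coverage per Gb put 6 of the 9 genes above 1 and 0 below −1. Of 12083 genes with at least 1 per Gb in a library, 17.4% were above 1 and 11.2% below −1. The exon-weighted mean of coverage put 7 above 1, where 16.6% of 11386 genes were, with all 9 genes higher in MR.

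The lists below are to be read against all compared genes, of which 59.5% were higher in MR, 21.3% were above 1 and 13.2% below −1 on TPM. On coverage, 17.4% were above 1 and 11.2% below −1 among 12083 genes with at least 1 per Gb in a library. The coverage counts of the lists are over genes that passed the level of 1 TPM, so the 2 sets were filtered differently.

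Myc acts in a network in which many proteins share or compete for Max, and the list used here also holds Mlx, Mlxip and Mycbp, which are not among those. Max itself was lower in MR, at 192.7 TPM in M and 96.5 TPM in MR (log2 ratio −0.99, −0.56 on coverage). Of 12 genes of the network, 11 could be compared, 4 were above 1 and 0 below −1, with a median of 0.82, while Mycn had no locus in either library. Mxi1, a repressor that competes with Myc for Max, went from 8.73 to 27.4 TPM (log2 ratio 1.54), and Mlxip, a glucose-responsive partner of Mlx, from 16.8 to 36.1 TPM (1.06). Mnt, another repressor, was at 24.3 and 21.7 TPM (−0.16). The other 2 above 1 were Mga and Mycl, named after their values were seen, and Mycl had no locus in M and 6.61 TPM in MR. Mga was in 2 pieces in MR, and its log2 ratio was 0.33 on the exon-weighted TPM. On coverage 2 genes of the network were above 1, and the median was 0.20.

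Genes commonly activated by Myc were nearly all higher in MR. Of 28 such genes, drawn from general knowledge of other cells, 27 were higher, 10 were above 1 and 1 was below −1. Their median was 0.88, against 0.21 over all genes. Tfrc, the transferrin receptor, was at 66.9 TPM in M and 478.6 TPM in MR (log2 ratio 2.82). Hspd1, a mitochondrial chaperonin, was at 86.2 and 376.7 TPM (2.11). At the lower end, Ldha, which makes lactate, was at 506.2 and 609.5 TPM (0.27), and Cdk4, a cell cycle kinase, at 105.8 and 141.2 TPM (0.41). The gene below −1 was the cyclin Ccnd2, at 7.37 and 1.37 TPM, named after its values were seen. With the median-of-ratios scaling 7 of the 28 were above 1, and 27 were still higher. On coverage 26 of 28 were higher, 9 above 1 and 2 below −1.

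The rest of the folate pathway was mixed. Of 19 further enzymes and carriers, 18 could be compared, 14 were higher in MR, 3 were above 1 and 2 below −1, with a median of 0.59. Mthfd1, the cytosolic counterpart that interconverts one-carbon units, was at 6.83 TPM in M and 33.5 TPM in MR (log2 ratio 2.14). Dld, the lipoamide dehydrogenase that the glycine cleavage system shares with other complexes, was at 53.3 and 207.3 TPM (1.94). The third gene above 1 was Aldh1l2, named after its values were seen, and Amt had no locus. Tyms, the thymidylate synthase that is also among the proliferation markers, was at 27.9 and 13.9 TPM, on the lower side with the other proliferation markers.

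In the methionine cycle and transsulfuration, 9 of 10 genes could be compared, 7 were higher in MR, 2 were above 1 and 0 below −1, with a median of 0.51. Ahcy, which hydrolyses S-adenosylhomocysteine, was at 16.6 TPM in M and 37.4 TPM in MR (log2 ratio 1.13), and Gclm, a subunit of the first enzyme of glutathione synthesis, at 32.0 and 54.3 TPM (0.75). Mtrr, which reactivates methionine synthase, was at 13.0 and 12.9 TPM (−0.01), with a log2 ratio of 0.47 on coverage. Ahcyl1, an Ahcy-like protein, was at 88.0 and 72.6 TPM (−0.27). The second gene above 1 was Cth, with no locus in M and 1.99 TPM in MR, and Cbs had no locus.

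Amino acid transporters other than LAT1 had log2 ratios from −3.15 to 4.17. Of 21, 19 passed the level of 1 TPM, 4 were above 1 and 5 below −1, and the median was 0.15 on TPM and −0.49 on coverage. Slc1a5, the sodium-dependent glutamine carrier known as ASCT2, was at 13.1 TPM in M and 252.2 TPM in MR (log2 ratio 4.17, 4.01 on coverage). Slc7a1, which carries arginine and lysine, was at 9.85 and 40.2 TPM (1.92). Lower in MR were Slc15a3, a lysosomal peptide and histidine carrier, at 402.2 and 44.5 TPM (−3.15), and Slc7a8, the light chain of LAT2, at 236.0 and 29.5 TPM (−2.96). The other 2 above 1 were Slc38a2 and Slc6a9, and the other 3 below −1 were Slc7a2, Slc7a7 and Slc36a1, all named after their values were seen. Broken loci were added for Slc6a9 and Slc7a2, whose exon-weighted log2 ratios were 0.99 and −0.90.

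The light chains that pair with Slc3a2 can be set beside it. The 5 light chains Slc7a5, Slc7a6, Slc7a7, Slc7a8 and Slc7a11, a set chosen after their values were seen, summed to 315.8 TPM in M and 86.1 TPM in MR. Slc7a8 made up 74.7% of this sum in M and 34.2% in MR, and Slc7a5 1.67% and 17.6%. Without Slc7a8 the sum was 79.7 TPM in M and 56.7 TPM in MR. In M the most abundant of the light chain RNAs was Slc7a8, and in MR it was Slc7a7 at 32.5 TPM, with Slc7a8 next. These sums, shares and ranks hold for TPM only. On coverage the log2 ratio of Slc7a7 was −2.07, against −1.05 on TPM. That of Slc7a6 was −0.65, against 0.93, and the other light chains kept their direction.

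**Figure D4:**
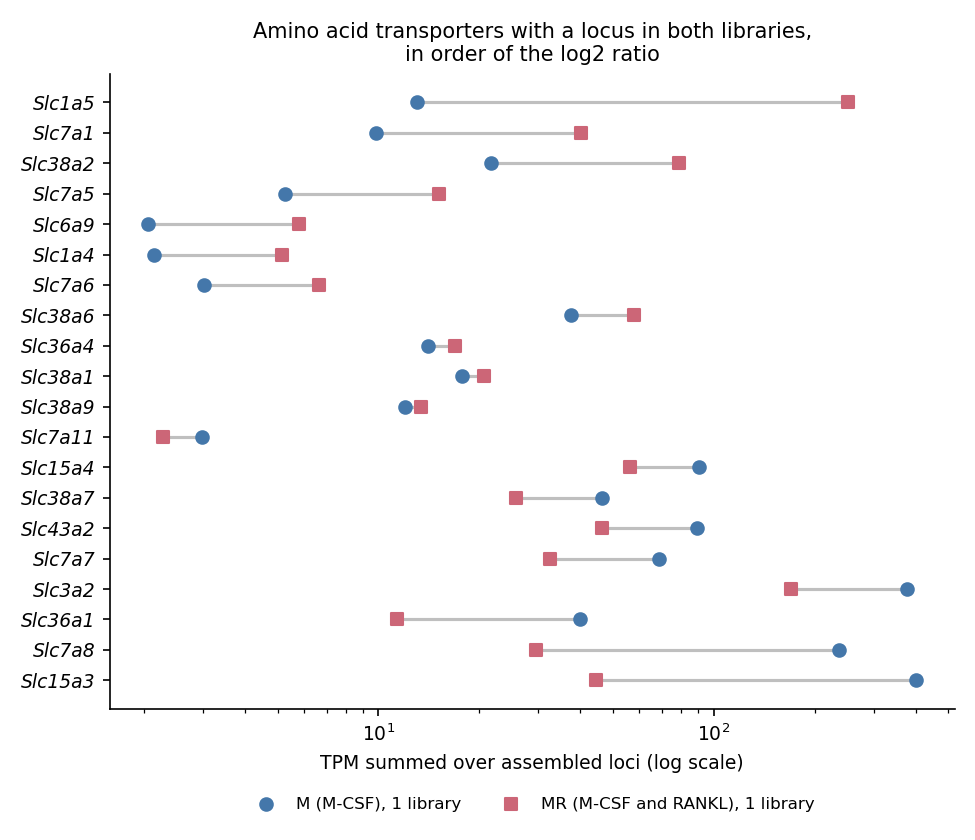
TPM (x axis, log scale) of 20 amino acid transporter genes with a locus in both libraries, in order of the log2 ratio, in M (circles) and MR (squares), 1 library each. Slc1a5 is at the top, at 13.1 and 252.2 TPM, Slc7a5 is among the genes near the top, and Slc7a8 and Slc15a3 are at the bottom.

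Amino acid shortage is known to act through Atf4, which activates Phgdh, Psat1, Shmt2, Mthfd2 and Slc7a5 in many cells. Atf4 RNA itself was at 216.7 TPM in M and 257.1 TPM in MR (log2 ratio 0.25). Of 20 genes of this response, 8 were above 1 (40%, against 21.3% of all genes) and 5 below −1 (25%, against 13.2%). Their median was 0.22, close to that of all genes. Asns, the asparagine synthetase, was at 18.7 and 76.5 TPM (1.97), and Eif2ak3, the kinase PERK, at 8.52 and 54.3 TPM (2.54). Atf3 was at 408.3 and 44.8 TPM (−3.16) and Cebpb at 179.3 and 65.8 TPM (−1.43), both stress-responsive transcription factors. The other 3 below −1 were Ddit3, Trib3 and Cebpg, named after their values were seen, and the locus of Ddit3 was shared with another gene. On coverage 6 were above 1 and 3 below −1. There Cebpg was higher in MR (log2 ratio 0.46), and Trib3 was at −0.94.

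The cytosolic aminoacyl-tRNA synthetases, which load tRNAs with amino acids, were higher in MR in 19 of 20 cases, where 59.5% of all genes were higher. The exception had a locus shared with another gene. Of the 20, 5 were above 1 (25%, near the 21.3% of all genes) and 0 below −1, with a median of 0.78. Iars, for isoleucine, was at 27.1 TPM in M and 92.0 TPM in MR (log2 ratio 1.73), and Gars, for glycine, at 126.9 and 349.1 TPM (1.45). Wars, for tryptophan, was at 53.3 and 56.5 TPM (0.08), and Rars, for arginine, at 56.2 and 62.5 TPM (0.15). The other 3 above 1 were Dars, Farsb and Vars. With the median-of-ratios scaling 17 of 20 were higher and 2 were above 1.

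For mTORC1, the kinase complex that senses amino acids, 23 of 24 genes could be compared, 3 were above 1 and 1 below −1, with a median of 0.22. Eif4ebp1, a translation repressor that mTORC1 phosphorylates, was at 81.5 TPM in M and 333.0 TPM in MR (log2 ratio 2.02), and Deptor, an inhibitor of mTOR, at 2.80 and 16.9 TPM (2.24). Sesn1, a leucine sensor of the sestrin family, was at 61.9 and 26.9 TPM (−1.18), and Castor2, a relative of the arginine sensor, at 19.8 and 10.6 TPM (−0.85). The third above 1 was Rragb, with no locus in M and 1.04 TPM in MR, and Rraga had no locus.

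Enzymes of glutamine, glutamate and branched-chain amino acids were higher in MR in 14 of 14 cases, where 59.5% of all genes were higher, with a median of 0.71 on TPM. Above 1 were 4 of 14 on TPM (28.6%, against 21.3% of all genes) and 1 of 14 on coverage, where 17.4% of the genes that passed the coverage filter were. Got1, the cytosolic aspartate aminotransferase, was at 44.2 TPM in M and 125.0 TPM in MR (log2 ratio 1.48), and Dbt, a subunit of the branched-chain ketoacid dehydrogenase, at 8.71 and 22.5 TPM (1.28). Glud1, the glutamate dehydrogenase, was at 158.1 and 201.7 TPM (0.35), and Bckdk, the kinase that inhibits the ketoacid dehydrogenase, at 37.4 and 48.0 TPM (0.35). Got2 was also above 1.

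**Figure D5:**
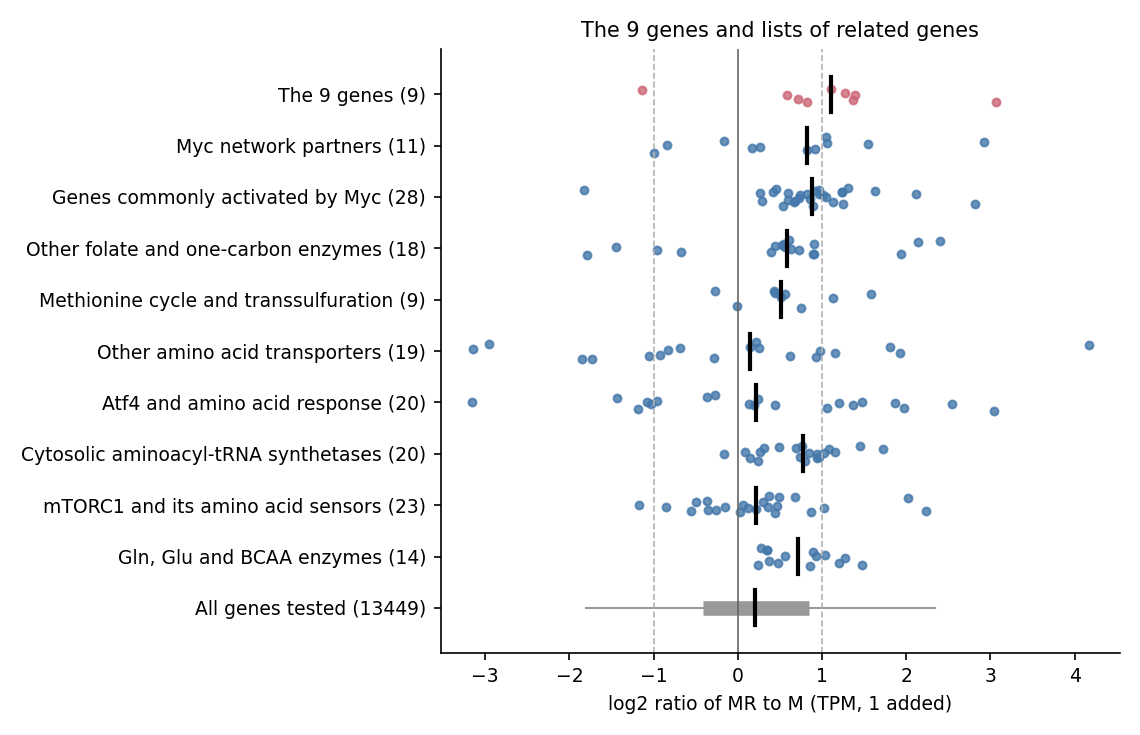
Log2 ratio of MR to M (x axis, TPM with 1 added) of each gene of the 9 genes and of 9 lists, with the number of genes compared in brackets and black bars at the medians. The grey bar at the bottom runs from the 25th to the 75th percentile of all 13449 compared genes and the thin line their 5th to 95th percentiles, around a median of 0.21. The medians run from 0.15 for other amino acid transporters to 1.11 for the 9 genes.

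The genes whose pair of levels was most like that of Myc, by the distance between log2(TPM + 1) values over the 2 libraries, were Klhl12 (3.81 and 40.5 TPM in M and MR, distance 0.04), Pcdh7 (3.94 and 37.6 TPM, 0.09) and Pter (3.92 and 36.5 TPM, 0.14). For Phgdh they were Pgp, Psmg1 and Aatf, at distances of 0.01, 0.02 and 0.03, matched to its summed value of 14.8 TPM in M and not to the exon-weighted 5.19 TPM. With only 2 libraries, such a likeness rests on 2 values per gene.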

How the data were processed

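The deposited files were gene abundance tables that the authors made with StringTie, 1 per library. Paired-end reads were trimmed with Trim Galore and aligned to mm10 with HISAT2, and StringTie was given the GENCODE vM27 annotation. The submitters' processing notes also name FastQC and SAMtools. From the aligned reads the authors' StringTie run gave coverage (depth per base) and FPKM, a level scaled to the aligned bases, for each locus, as deposited. FPKM was not coverage divided by the aligned bases at every locus. The authors rescaled FPKM to TPM. In the deposited TPM column, treated here as a score, the assembled loci add up to 1000000 per library, and the entries that carry gene names come on top of that (87234 in M, 129264 in MR). Named entries carried positions of another build and were not used.

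Loci were given to the GENCODE vM21 gene with the most exon bases (at least 50) on the same strand. This placed 15665 loci with 95.4% of TPM in M, and 16523 with 96.9% in MR. TPM was summed per gene, a gene without a locus in a library was given 0, and the log2 ratio was taken with 1 added to each value, which understates the change of low genes. The same 1 was added to coverage per Gb. Its values are generally smaller than TPM, so its log2 ratios understate changes more and are not on the same scale. Genes needed 1 TPM in at least 1 library and a locus not shared with, or inside, another gene, apart from listed genes said to share one. For another unit or scaling, the share over all genes was taken over those that reached 1 in that unit. The number of aligned bases, the measure of depth, was read from the ratio of listed coverage to FPKM, which was the same to within 0.5% in 46.1% of entries in M and 47.7% in MR with FPKM above 5. Read pairs were approximated from FPKM, aligned bases and 300 bases per pair, over the exon bases in the locus up to the length of the gene's first-numbered GENCODE transcript. The shortest coding transcript was planned but was a fragment for several genes. Intervals are 95% Wilson intervals on the 2 counts, placed around the fold of summed TPM, and cover counting error only. For Phgdh and Shmt1 that fold is not the one the counts give, because pieces of a broken gene were added. Their intervals lie below the exon-weighted folds of 4.8 and 3.29. With 1 library per condition no test was run.

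The 9 genes and all lists were chosen with earlier results of these data known. From each list the 2 highest and 2 lowest log2 ratios among genes with at least 10 TPM in a library were named, plus Max and Atf4, and the 3 genes nearest to Myc and to Phgdh. A few genes of the lists are not reported here by name. Alternatives were a different pseudocount, level filters, FPKM, median-of-ratios scaling, and removal of mitochondrial and the 20 most abundant genes. Others were coverage, the largest locus, loci with a strand only, genes with a locus of their own only, and a log2 threshold of 2. Exon-weighted means were chosen after seeing the data. Promoter windows came from a RefSeq table. The scripts ran in Python 3.11.15 with matplotlib 3.10.9, scipy 1.17.1, pandas 2.3.3 and numpy 2.4.6, and the assignment of loci was tested on simulated data.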

Additional observations from a re-analysis of the deposited data

How the results depend on the processing

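No paired analysis was possible because each condition was 1 library, and for the same reason no replicate could be left out. Some alternatives could not move the log2 ratio of the genes followed. The level filters, loci with a strand only and genes with a locus of their own only kept it as it was or dropped the gene. The largest locus and the exon-weighted TPM also kept it, except for Phgdh and Shmt1, whose loci were broken. The tally that follows includes such values and is therefore not a count of checks that could each have failed. Of 228 alternative values, 202 stayed within the counting interval or within 1.5 times the count. Another 24 moved, among them Shmt1, whose sign changed on summed coverage, and 2 turned from below −1 to above 1. These 2 were Slc3a2, from −1.14 to 1.48 on coverage per Gb, summed or exon-weighted, and its ratio was −1.32 with median-of-ratios scaling and −1.24 once mitochondrial genes and the 20 at the top were removed. Phgdh moved from 0.71 to 2.0 on its largest locus, 2.07 on the exon-weighted TPM and 1.83 on exon-weighted coverage. Shmt1 moved from 0.82 to 1.35 on its largest locus, 1.44 on the exon-weighted TPM and −0.0185 on summed coverage. Mthfd2 was 0.40 with median-of-ratios scaling. The number of all genes past 1 in either direction was 4639, against 2580 with at least 10 TPM and 1476 at a log2 threshold of 2. Past 1 in either direction, methionine cycle genes numbered 2, and 1 with at least 10 TPM, FPKM, median-of-ratios scaling, and both coverage measures. The tRNA synthetases numbered 5, and 2 with median-of-ratios scaling and 3 without the most abundant genes and on both coverage measures. Myc network genes numbered 4, and 2 on summed and 1 on exon-weighted coverage, and glutamine and branched-chain enzymes 4, and 1 on both coverage measures. The cause was not tested, except that the largest-locus and weighted values differ from the sums because a broken gene is then counted once. Depth limits Myc, Phgdh, Psph and Shmt1 most, with 40 to 61 read pairs in M.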
